A study of Xenopus laevis with 12 samples.

Results

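The myogenic transcription factors described here are 9 genes that set up skeletal muscle: myod1, myf5, myf6, myog, pax7, mef2a, mef2c, mef2d and tbx1. Xenopus laevis carries most genes as homeologs, a pair of copies from a genome duplication that are marked .L and .S. The members were found by matching the NCBI gene identifier in each file to the Xenopus_laevis_v10.1 gene table, and all 9 symbols had both copies, so that 18 of 37018 gene rows were described. RNA was sequenced from whole heads of wild-type control tadpoles and of tadpoles treated with thioridazine, a phenothiazine antipsychotic that blocks dopamine receptors. Treated embryos were held in 90 µM thioridazine from Nieuwkoop and Faber (NF) stage 14 to 26, and controls shared the 18 °C of that window. Embryos were kept at 14 °C before the exposure and, once it ended, up to the feeding tadpole stages. Heads were taken after the exposure had ended, at the larval stages NF 45 and NF 47, and the treated tadpoles were ones with malformed faces. Each of the 4 groups (control and treated, stage 45 and stage 47) had 3 libraries labelled as biological replicates, and the labels do not say how many heads went into a library.

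Myod1, Myf5, Myf6 and Myog are basic helix-loop-helix factors that bind E-boxes as dimers with E proteins and switch on muscle genes. Myf5 and Myod1 commit cells to the muscle fate, Myog drives their differentiation and fusion, and Myf6 (also called Mrf4) acts in commitment and again in maturing fibres. Mef2 proteins are MADS-box factors that bind with them at muscle promoters. In the head, where jaw and pharyngeal muscles form from cranial mesoderm, Tbx1, Msc and Tcf21 act upstream of Myf5 and Myod1 in place of the Pax3 route of the trunk, and Pax7 marks muscle stem cells. Several members are also made by other cells of the head: Mef2 factors by neurons, heart and neural crest, Tbx1 by pharyngeal endoderm and ear, and Pax7 by brain and neural crest.

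The libraries held 11998636 to 16933777 counts, and 27050 genes had enough counts to be tested. Levels below are CPM, a gene's counts relative to a library size adjusted by TMM, a scaling that assumes most genes do not change. Neuron genes of the head were present in every library. Since transcript lengths were not used, a level can be compared between libraries but not between genes. A list of 18 rows of liver genes, an organ outside the head, summed to between 67.9 and 1514 CPM, with a mean of 232, 365, 1183 and 457 CPM in stage 45 controls, stage 45 treated, stage 47 controls and stage 47 treated heads. The part of this liver RNA in the results below was not tested. In RNA from whole heads, fewer cells of a type and less RNA per cell cannot be told apart.

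No myogenic factor passed the test in any comparison of treatment or stage. At an adjusted p under 0.05 (edgeR's quasi-likelihood test, Benjamini-Hochberg adjustment over all genes tested), 0 of 18 member rows were called for thioridazine against control at stage 45, where 0% of all genes were called, and 0 of 18 at stage 47, where 0.0739% were. From stage 45 to stage 47, 0 of 18 rows were called in controls, beside 6.24% of all genes, and 0 of 18 in treated heads, beside 4.86%. The treatment effect averaged over both stages called 0 of 18 rows beside 0.144% of all genes (0.137% higher and 0.00739% lower). The stage 47 effect less the stage 45 effect, a test of whether treatment acted unequally at the stages, called 0 of 18 beside 0%. DESeq2 also called 0 member rows in each of these 6 comparisons. At an unadjusted p under 0.05 there was 1 row for treatment at stage 45 (5.56% of members, 5.33% of all genes), 0 at stage 47 (3.52% of all genes), 2 from stage 45 to 47 in controls (11.1% of members, 21.3% of all genes), 1 in treated heads (5.56% and 19.6%), 0 for the difference (2.13% of all genes) and 1 for both stages together (6.9% of all genes).

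The fit also bounded how far the members could have moved. For treatment at stage 45, the 95% intervals of all 18 rows lay within a 2-fold change in either direction, from -0.87 to 0.85 on the log2 scale. At stage 47 the intervals of 17 of 18 rows did, and the exception was myf5.L, whose interval ran from -0.28 to 1.19. Both stage comparisons also had 17 of 18 intervals within 2-fold, the exceptions being myod1.L in controls (down to -1.03) and myf5.L in treated heads (up to 1.44). These intervals are unadjusted and describe 1 row at a time. Raw counts per library ran from 24 for myf5.L to 1363 for mef2d.L, so myf5 was measured least precisely and mef2c.L, mef2d.L and tbx1.L most precisely.

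**Figure D1:**
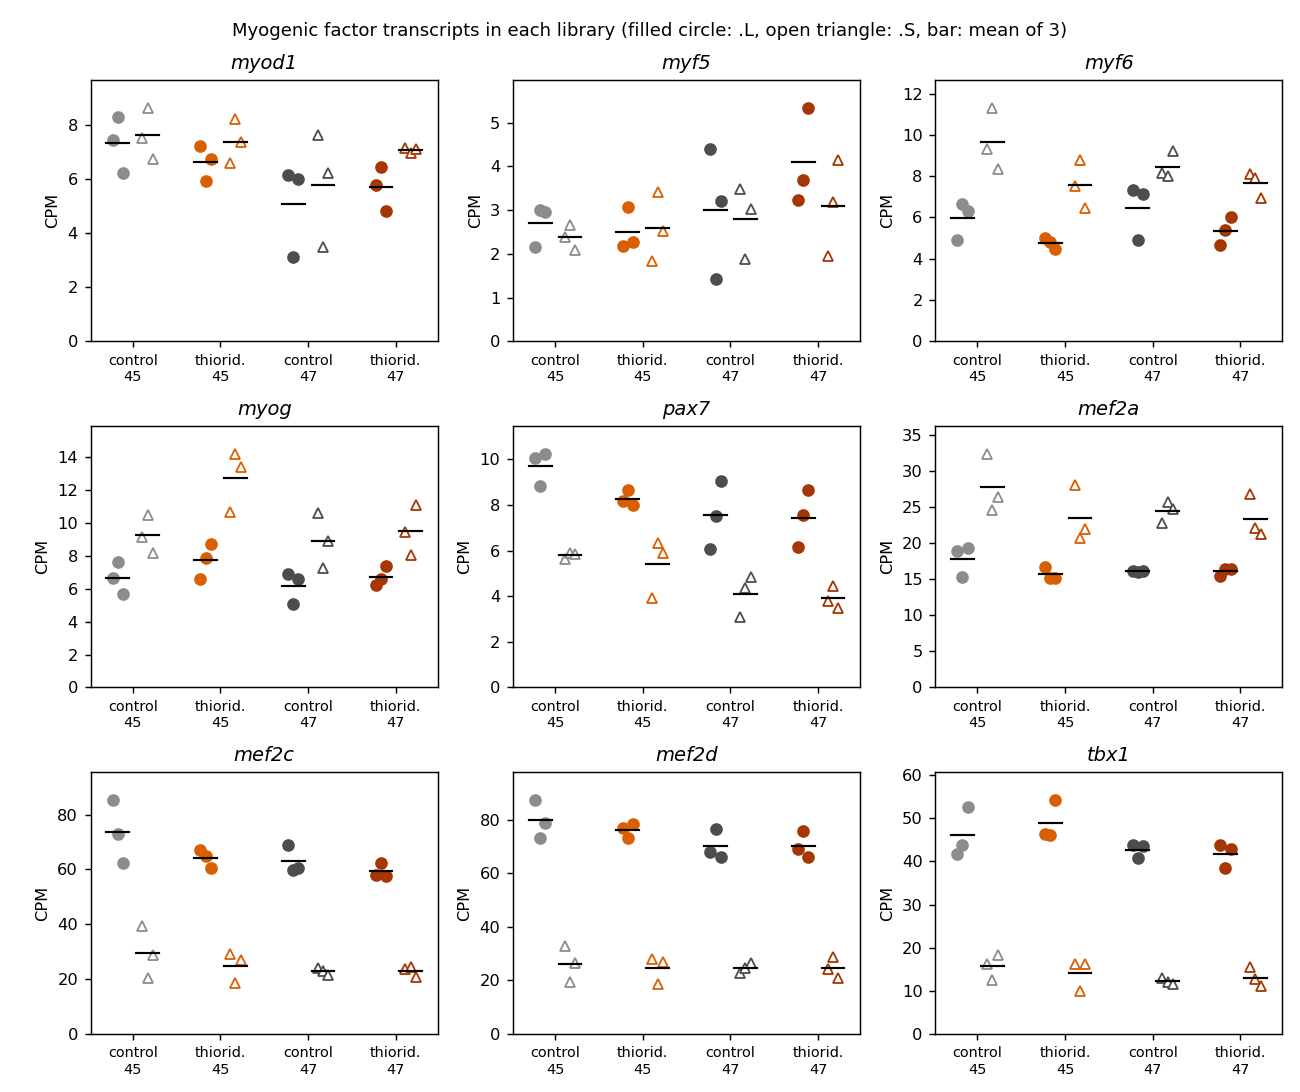
Level of each myogenic factor in each library, in CPM (linear axis from 0, one panel per gene), with .L and .S rows drawn separately for stage 45 controls, stage 45 thioridazine, stage 47 controls and stage 47 thioridazine; points are single libraries and bars are group means. Treated and control groups overlap in all rows but myog.S and pax7.L at stage 45. Stage groups do not overlap for myod1.L and pax7.S in controls and for myf5.L and tbx1.L in treated heads. The mean of myog.S is highest in the stage 45 treated heads. Replicate 2 of the stage 47 controls lies low for myod1, myf5 and myog.

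Myod1, which commits cells to the muscle fate, stood at overlapping levels in treated and control heads. The .L copy (gene 397758) stood at 7.46, 8.32 and 6.24 CPM in controls and 7.24, 5.92 and 6.76 CPM in treated heads at stage 45, and at 6.15, 3.13 and 6.01 CPM and 5.81, 6.47 and 4.83 CPM at stage 47. The .S copy (gene 379053) stood at 7.54, 8.65 and 6.76 CPM in controls and 6.61, 8.22 and 7.38 CPM in treated heads at stage 45, and at 7.65, 3.48 and 6.25 CPM and 7.16, 6.97 and 7.12 CPM at stage 47. In both copies treated and control libraries overlapped at each stage. For myod1.L every stage 47 control lay below every stage 45 control. From stage 45 to 47 in controls, myod1.L moved by -0.53 on the log2 scale (SE 0.24, 95% interval -1.03 to -0.02, edgeR adjusted p = 0.212) and myod1.S by -0.41 (adjusted p = 0.337). Replicate 2 of the stage 47 controls was the lowest of all 12 libraries for both copies, and without it these values were -0.27 (adjusted p = 0.565) and -0.14 (adjusted p = 0.783). With .L and .S summed, myod1 was at 6.61 CPM in that library and at 13.8 and 12.3 CPM in the other stage 47 controls. Its place bore on the treatment value at stage 47, which for myod1.L was 0.17 (95% interval -0.34 to 0.68) with it and -0.09 without it, and for myod1.S 0.30 (-0.19 to 0.80) with it and 0.03 without it, each with an edgeR adjusted p of 1. At stage 45 the treatment intervals were -0.64 to 0.36 for myod1.L and -0.53 to 0.44 for myod1.S.

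Myf5, the other commitment factor, was the member with the fewest counts. The .L copy (gene 397960) stood at 2.15, 3.00 and 2.95 CPM in controls and 2.18, 3.07 and 2.27 CPM in treated heads at stage 45, and at 4.41, 1.42 and 3.21 CPM and 3.24, 3.69 and 5.34 CPM at stage 47. The .S copy (gene 108713187) stood at 2.38, 2.66 and 2.08 CPM in controls and 1.83, 3.41 and 2.52 CPM in treated heads at stage 45, and at 3.49, 1.89 and 3.04 CPM and 1.96, 3.19 and 4.15 CPM at stage 47. The same stage 47 control library was again the lowest or next to lowest of the 12, and the control libraries of stage 47 spread wider than those of stage 45. The log2 difference with treatment at stage 47 was 0.46 for myf5.L and 0.14 for myf5.S, and 0.11 and -0.08 without that library, with edgeR adjusted p of 1 in each case. In treated heads every stage 47 library of myf5.L was above every stage 45 library, a log2 difference of 0.70 (SE 0.35, 95% interval -0.04 to 1.44) that did not pass the edgeR test (adjusted p = 0.286). In treated heads, 25.2% of all genes had stage groups that did not overlap, and 2 of 18 members did, myf5.L and tbx1.L. In controls, 25.1% of all genes did, and 2 of 18 members, myod1.L and pax7.S.

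Myog, the differentiation factor, was the member whose treated libraries stood highest relative to controls at stage 45. The .S copy (gene 373806) stood at 9.15, 10.5 and 8.21 CPM in controls and 10.7, 14.2 and 13.4 CPM in treated heads at stage 45, and at 10.6, 7.26 and 8.93 CPM and 9.45, 8.06 and 11.1 CPM at stage 47. At stage 45 each treated library was above each control, with means of 9.28 ± 1.14 (SD, n = 3) CPM in controls and 12.8 ± 1.85 (SD, n = 3) in treated heads. This was a 1.38-fold difference, 0.46 on the log2 scale (SE 0.18, 95% interval 0.08 to 0.85). EdgeR's test gave an unadjusted p of 0.0216 and an adjusted p of 0.796. With a block for replicate number within each stage, edgeR's adjusted p was 0.117, and DESeq2 without a block gave 0.704. Of all genes, 9.55% had treatment groups that did not overlap at stage 45, and of the members 2 of 18 did, myog.S with treated heads higher and pax7.L with treated heads lower. At stage 47 the shares were 9.6% of all genes and 0 of 18 members. Paired by replicate number, the log2 differences of myog.S were 0.22, 0.43 and 0.70. That all 3 were above 0 follows from the lack of overlap and adds nothing to it.

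At stage 47 the myog.S groups overlapped, at 8.94 ± 1.69 (SD, n = 3) and 9.54 ± 1.52 (SD, n = 3) CPM. From stage 45 to stage 47 myog.S moved by -0.42 in treated heads (edgeR adjusted p = 0.212). The difference between its treatment effects at both stages had the smallest unadjusted p of the members, 0.177, and an adjusted p of 1. The .L copy (gene 378648) stood at 6.69, 7.66 and 5.67 CPM in controls and 6.61, 7.87 and 8.73 CPM in treated heads at stage 45, and at 6.90, 5.08 and 6.61 CPM and 6.21, 6.63 and 7.37 CPM at stage 47. Its groups overlapped in each comparison. Replicate 2 of the stage 47 controls was the lowest of the 12 libraries for both myog copies. With the copies summed, myog was at 12.3 CPM in that library and at 17.5 and 15.5 CPM in the other stage 47 controls. The log2 difference with treatment at stage 47 was 0.10 for myog.S and 0.12 for myog.L, and values without that library are not given here.

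Myf6, which acts in commitment and in maturing fibres, lay on the other side of controls. The .S copy (gene 495450) stood at 9.31, 11.3 and 8.33 CPM in controls and 7.52, 8.78 and 6.46 CPM in treated heads at stage 45, and at 8.15, 8.03 and 9.22 CPM and 8.10, 7.89 and 6.95 CPM at stage 47. The .L copy (gene 397858) stood at 4.92, 6.66 and 6.30 CPM in controls and 4.99, 4.81 and 4.49 CPM in treated heads at stage 45, and at 7.32, 4.90 and 7.14 CPM and 4.66, 5.37 and 6.02 CPM at stage 47. Treated means were lower than control means for both copies at both stages, and the groups overlapped by at least 1 library each time. Paired by replicate number, myf6.S was lower in the treated library in 3 of 3 pairs at stage 45, with log2 differences of -0.30, -0.36 and -0.36, and in 3 of 3 at stage 47, with -0.01, -0.03 and -0.40. The pairs of myf6.L gave 0.02, -0.46 and -0.48 at stage 45 and -0.64, 0.13 and -0.24 at stage 47. Pairs that all lay on 1 side were not particular to myf6.S. At stage 45 all pairs were lower for pax7.L, mef2a.L, mef2a.S, mef2c.L and mef2c.S too, and all were higher for myog.S and tbx1.L. No pair of tbx1.L was higher at stage 47. The share of all genes with such pairs was not computed. At stage 45 the log2 difference was -0.34 for myf6.S (SE 0.17, 95% interval -0.70 to 0.01, edgeR adjusted p = 0.964). For myf6.L it was -0.32 (SE 0.20, edgeR adjusted p = 1). With a block for replicate number within each stage, edgeR's adjusted p was 0.286 for myf6.S and 0.509 for myf6.L. Averaged over both stages the values were -0.25 and -0.30 (adjusted p = 0.745 and 0.742). With the copies summed to 1 row per symbol before the fit, myf6 at stage 45 gave -0.34 (unadjusted p = 0.0314, edgeR adjusted p = 0.816) and myog gave 0.36 (unadjusted p = 0.0433, adjusted p = 0.861).

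Since myog and myf6 lay on opposite sides, their ratio within a library was computed, after these values had been seen, and is given as a description with no test. The ratio of summed myog to summed myf6 counts was 1.11, 1.01 and 0.949 in stage 45 controls and 1.38, 1.63 and 2.02 in stage 45 treated heads. Among stage 47 libraries the controls gave 1.13, 0.954 and 0.949 and the treated heads 1.23, 1.11 and 1.43. The stage 45 groups did not overlap, at 1.02 ± 0.0834 (SD, n = 3) against 1.68 ± 0.323 (SD, n = 3), whereas at stage 47 the lowest treated library lay below the highest control. A ratio within a library does not depend on the scaling of libraries, and being a ratio of counts from transcripts of different length it is read only between libraries. In the v10.1 table myf6 and myf5 are next to each other on both subgenomes, with 0 genes between them. Summed myf5 stood at 5.08 ± 0.562 (SD, n = 3), 5.09 ± 1.26, 5.82 ± 2.33 and 7.19 ± 2.17 CPM in stage 45 control and treated and stage 47 control and treated heads. Its treatment intervals at stage 45 were wide, -0.87 to 0.65 for myf5.L and -0.58 to 0.83 for myf5.S on the log2 scale. Whether myf5 and myf6 differed in their response was not tested.

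**Figure D2:**
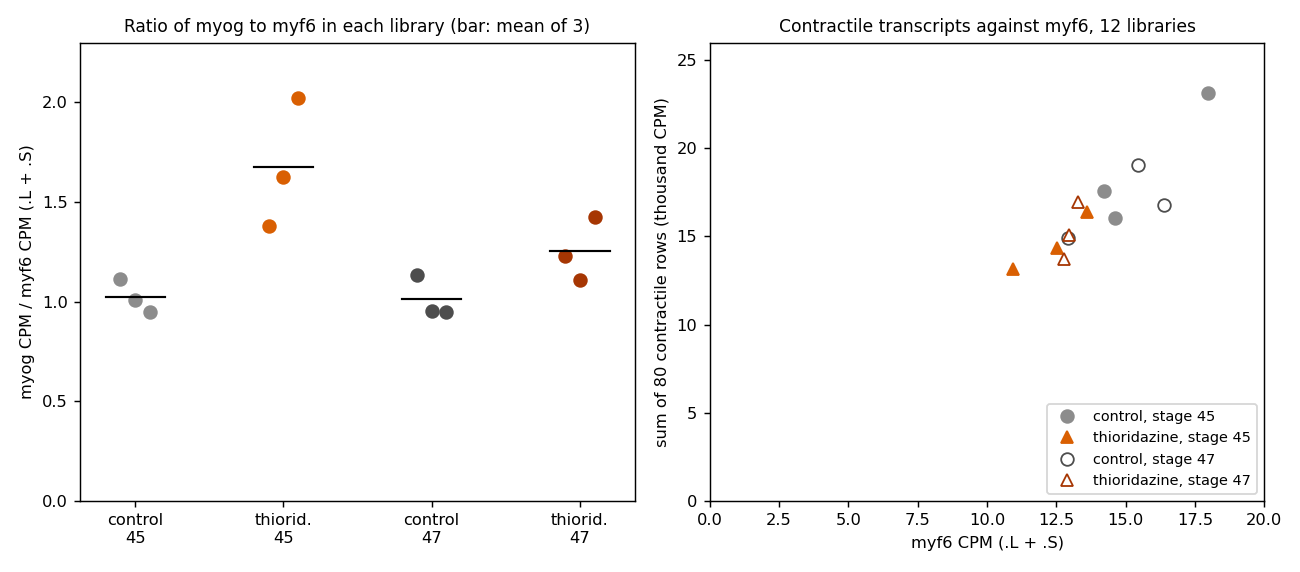
Left, ratio of summed myog to summed myf6 counts in each library by group (points are libraries, bars are group means, axis from 0). Right, summed contractile gene level against summed myf6 level per library, both in CPM with axes from 0. The stage 45 treated libraries, at 1.38 to 2.02, lie above the stage 45 controls, at 0.949 to 1.11, and in the right panel the 12 points run upward from 10.9 to 18.0 CPM of myf6.

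The mef2 genes, whose proteins bind beside the myogenic factors, had higher counts than most members. Mef2c.L (gene 444310), the copy with the higher count of this heart and muscle regulator, stood at 85.2, 72.9 and 62.3 CPM in controls and 67.0, 64.9 and 60.6 CPM in treated heads at stage 45, and at 68.9, 59.6 and 60.5 CPM and 58.1, 62.1 and 57.6 CPM at stage 47. Mef2d.L (gene 735032), a factor active in adult fibres and neurons, stood at 87.3, 73.1 and 78.8 CPM in controls and 77.1, 73.4 and 78.4 CPM in treated heads at stage 45, and at 68.1, 76.5 and 66.1 CPM and 68.9, 75.7 and 66.1 CPM at stage 47. Mef2a.S (gene 108712821), the third family member, stood at 32.4, 24.6 and 26.4 CPM in controls and 28.0, 20.7 and 21.9 CPM in treated heads at stage 45, and at 22.8, 25.7 and 24.8 CPM and 26.8, 22.2 and 21.3 CPM at stage 47. In each of these rows the groups overlapped, and replicate 1 of the stage 45 controls was the highest of the 12 libraries. All 6 mef2 rows lay below control at stage 45 and below stage 45 in stage 47 controls, with no row called. Both comparisons use the same stage 45 control libraries, so these directions are not separate observations. For treatment at stage 45, the mef2 rows with an unadjusted p under 0.15 were mef2a.S, mef2c.L and mef2a.L. They gave -0.24, -0.19 and -0.19 on the log2 scale, each with an edgeR adjusted p of 1. On leaving out each library in turn, these values ran from -0.377 to -0.124, -0.303 to -0.084 and -0.284 to -0.128. Summed over the 6 rows, mef2 RNA was at 254 ± 36.7 (SD, n = 3), 229 ± 17.2, 221 ± 5.13 and 216 ± 13.2 CPM in stage 45 control and treated and stage 47 control and treated heads.

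The 3 other mef2 rows gave like values. Mef2a.L (gene 380452) stood at 18.9, 15.3 and 19.3 CPM in controls and 16.7, 15.2 and 15.2 CPM in treated heads at stage 45, and at 16.1, 16.1 and 16.1 CPM and 15.5, 16.4 and 16.4 CPM at stage 47. Mef2c.S (gene 108707236) stood at 39.2, 20.2 and 28.9 CPM in controls and 29.0, 18.5 and 26.9 CPM in treated heads at stage 45, and at 23.9, 23.0 and 21.4 CPM and 23.5, 24.4 and 20.9 CPM at stage 47. Mef2d.S (gene 399340) stood at 32.6, 19.4 and 26.4 CPM in controls and 27.9, 18.5 and 27.0 CPM in treated heads at stage 45, and at 22.7, 24.4 and 26.4 CPM and 24.3, 28.5 and 20.7 CPM at stage 47. For mef2c.S and mef2d.S, replicate 2 was low in both stage 45 groups. From stage 45 to 47 in controls, mef2c.S moved by -0.37 (edgeR adjusted p = 0.318), mef2c.L by -0.22 (adjusted p = 0.274) and mef2d.L by -0.18 (adjusted p = 0.309). The smallest adjusted p that any member reached under any alternative was 0.0637, in edgeR. It was that of mef2c.S in this comparison without replicate 2 of the stage 45 controls, where its log2 difference was -0.58. On leaving out each library in turn, this difference of mef2c.S ran from -0.58 to -0.12. Its largest edgeR adjusted p was 0.763, without replicate 1 of the stage 45 controls.

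Pax7, the stem cell factor, had lower means at stage 47 than at stage 45 in every case. The .L copy (gene 496378) stood at 10.1, 8.82 and 10.2 CPM in controls and 8.15, 8.64 and 7.99 CPM in treated heads at stage 45, and at 6.07, 7.50 and 9.05 CPM and 6.14, 7.56 and 8.65 CPM at stage 47. The .S copy (gene 108697868) stood at 5.62, 5.91 and 5.84 CPM in controls and 3.94, 6.34 and 5.90 CPM in treated heads at stage 45, and at 3.08, 4.37 and 4.82 CPM and 3.78, 4.45 and 3.48 CPM at stage 47. For pax7.S every stage 47 control was below every stage 45 control. The log2 differences from stage 45 to 47 were -0.36 for pax7.L and -0.49 for pax7.S in controls (edgeR adjusted p = 0.256 and 0.225) and -0.47 for pax7.S in treated heads (adjusted p = 0.278). With the copies summed, pax7 gave -0.41 in controls (unadjusted p = 0.0204, edgeR adjusted p = 0.138). Summed myod1 and mef2c also had an unadjusted p under 0.05 there (0.0423 and 0.0343, edgeR adjusted p = 0.205 and 0.183). In the fit by row, 21.3% of all genes had an unadjusted p under 0.05 in this comparison. At stage 45 the 3 treated libraries of pax7.L lay below the 3 controls, at 9.71 ± 0.774 (SD, n = 3) against 8.26 ± 0.337 CPM, with an adjusted p of 1.

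Tbx1, the pharyngeal regulator upstream of head muscle, had treated libraries among the controls at both stages. The .L copy (gene 735223) stood at 41.7, 43.9 and 52.7 CPM in controls and 46.4, 46.3 and 54.2 CPM in treated heads at stage 45, and at 43.8, 40.9 and 43.6 CPM and 43.8, 38.5 and 42.9 CPM at stage 47. The .S copy (gene 399188) stood at 16.2, 12.5 and 18.2 CPM in controls and 16.3, 10.0 and 16.3 CPM in treated heads at stage 45, and at 12.9, 12.1 and 11.5 CPM and 15.4, 12.6 and 11.1 CPM at stage 47. In treated heads every stage 47 library of tbx1.L was below every stage 45 library, with a log2 difference of -0.23 (SE 0.11, 95% interval -0.46 to 0.00, edgeR adjusted p = 0.258). With treatment, the 95% intervals of tbx1.L were -0.14 to 0.32 at stage 45 and -0.27 to 0.20 at stage 47. For tbx1.S the stage value in controls was -0.37 (adjusted p = 0.301).

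**Figure D3:**
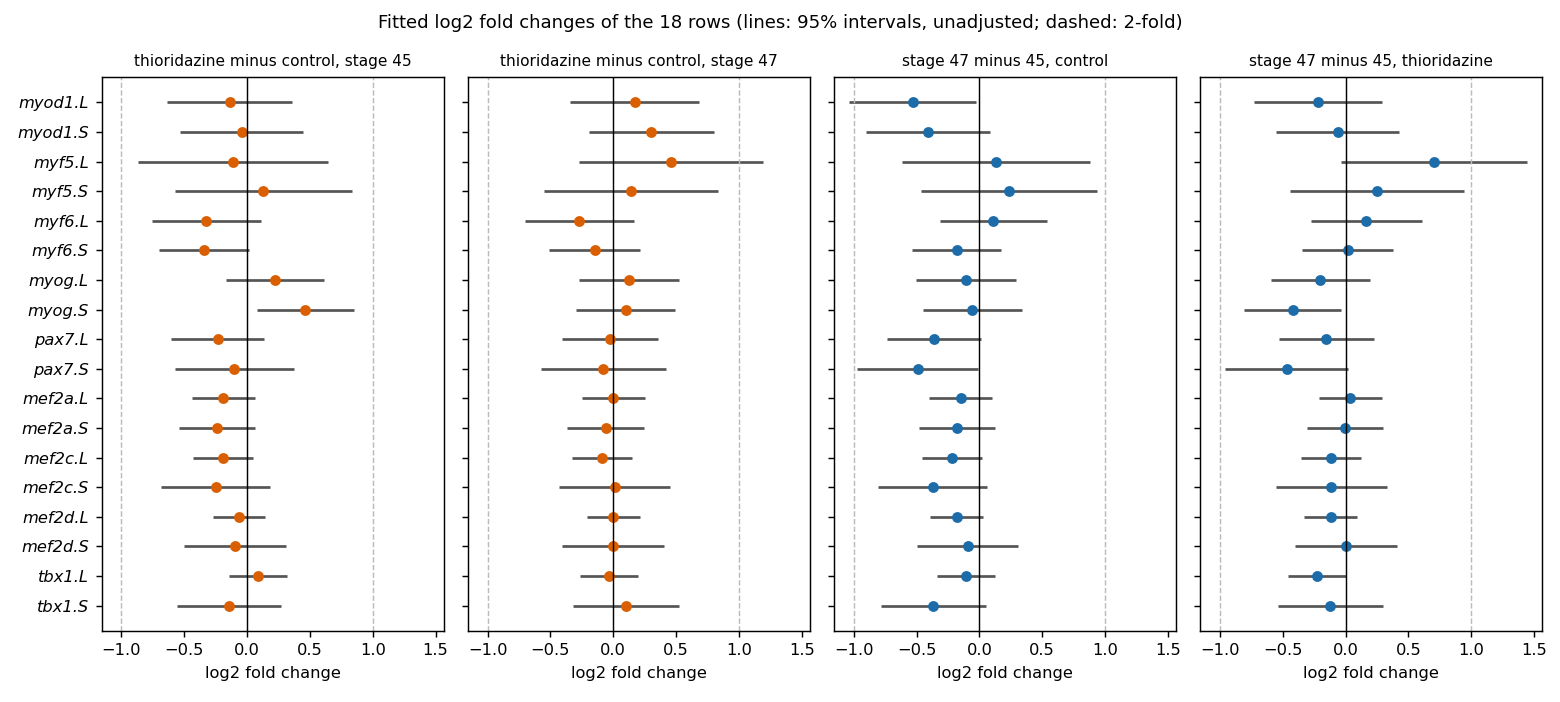
Log2 fold change of each of the 18 member rows for treatment at stage 45, treatment at stage 47, and the step from stage 45 to 47 among controls and among treated tadpoles; points are edgeR estimates and bars are unadjusted 95% intervals. Most bars cross 0, the exception for treatment being myog.S at stage 45, and no row passes the adjusted test in any panel.

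Over the 18 rows the median log2 difference with treatment was -0.125 at stage 45, where it was 0.015 over all genes tested, and 0 at stage 47, beside 0.004 over all genes. Above control lay 4 of 18 rows at stage 45, both myog copies, myf5.S and tbx1.L, and 9 of 18 at stage 47. Of these 9 rows, 6 were the copies of myod1, myf5 and myog, for which replicate 2 of the stage 47 controls was low. From stage 45 to 47 the median was -0.18 in controls and -0.11 in treated heads, beside -0.011 and -0.006 over all genes. The 4 basic helix-loop-helix factors summed to 51.6 ± 6.35 (SD, n = 3), 52.0 ± 4.32, 46.8 ± 10.2 and 49.2 ± 3.27 CPM in the 4 groups, in the order used for mef2. The libraries of the 4 groups overlapped in this total. The lowest of the 12 libraries was replicate 2 of the stage 47 controls, at 35.2 CPM.

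The share of a gene's reads that came from the .S copy differed between members. It ran over the 12 libraries from 47.7 to 59.6% for myod1, 37.7 to 57.1% for myf5, 52.7 to 65.4% for myf6 and 54.9 to 64.3% for myog. It ran from 28.7 to 42.5% for pax7, 56.4 to 63.3% for mef2a, 21.7 to 31.7% for mef2c, 20.2 to 28.6% for mef2d and 17.8 to 28.0% for tbx1. Within each pair the order held for pax7, mef2a, mef2c, mef2d, tbx1, myf6 and myog in all 12 libraries, with .L higher for pax7, mef2c, mef2d and tbx1, and .S higher for mef2a, myf6 and myog. For myog the share was 58.2 ± 0.799 (SD, n = 3)% in stage 45 controls and 62.2 ± 1.94% in stage 45 treated heads. Reads that fit both copies could have been split between them by the authors' counting, and the copies may differ in length, so a share is not a ratio of transcripts.

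The contractile genes that these factors drive were lower in treated heads at stage 45 in most rows, though none was called. Of a list of 61 symbols for sarcomere proteins, calcium handling and the neuromuscular junction, 52 were found, as 80 rows, of which 79 were tested. At stage 45, 69 of 79 rows lay below control and 10 above, with a median of -0.29 on the log2 scale beside 0.015 over all genes. EdgeR called 0 of 79 rows, beside 0% of all genes, and 29 of 79 (36.7%) had an unadjusted p under 0.05, all lower, beside 5.33% of all genes. Rows of a list were measured in the same libraries and can move together. Counts and shares of rows, here and below, are therefore not counts of independent observations. DESeq2 called 2 rows, both lower, among 77 genes called in all. EdgeR with a block for replicate number within each stage called 9, all lower, among 268 genes called in all. Actn3.L, the fast-fibre alpha-actinin, went from a mean of 265 to 182 CPM (-0.55, SE 0.12, edgeR adjusted p = 0.319, 0.018 with the block and 0.00915 in DESeq2). Tpm2.L, beta-tropomyosin, went from 184 to 133 CPM (-0.47, edgeR adjusted p = 0.491, 0.0249 with the block and 0.0494 in DESeq2). Myom2.L, an M-band protein, gave -0.51 (edgeR adjusted p = 0.544).

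At stage 47, 66 of 79 contractile rows lay below control, with a median of -0.17, and edgeR called 0, beside 0.0739% of all genes. There were 6 rows, all lower, with an unadjusted p under 0.05 (7.59% beside 3.52% of all genes), and DESeq2 called 0 rows. The rows with the smallest p were myl4.S (-0.30), tmod4.S (-0.46) and tnnt1.S (-0.85), a light chain, a thin-filament cap and a slow troponin, each with an edgeR adjusted p of 1. Averaged over both stages, 72 of 79 rows lay below control with a median of -0.24. EdgeR called 0 rows, DESeq2 2 and the fit with the replicate block within each stage 17, all lower. These fits called 39, 148 and 599 genes in all. Of the 79 rows 33 (41.8%, beside 6.9% of all genes) had an unadjusted p under 0.05. The difference between the 2 treatment effects called 0 contractile rows in each of these tools, with 1 of 79 at an unadjusted p under 0.05 (1.27%, beside 2.13% of all genes). The block for replicate number changed no call of a myogenic factor.

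Summed over the list, contractile RNA stood at 17572, 23139 and 16036 CPM in controls and 14330.1, 16385 and 13173 CPM in treated heads at stage 45, and at 19057, 14924 and 16778 CPM and 13734, 16955 and 15106 CPM at stage 47. At stage 45 the highest treated library lay above the lowest control. The sum was 18916 ± 3737 (SD, n = 3) CPM in stage 45 controls and 14629.5 ± 1626 in treated heads, and 16919.7 ± 2070.2 and 15265 ± 1616 at stage 47. Over the 12 libraries the contractile sum spanned a 1.76-fold range and the myf6 sum a 1.64-fold range. Contractile RNA per myf6 RNA ran from 1025 to 1287, a 1.26-fold range. The same ratio was not computed for any other single member, so whether it sets myf6 apart was not tested. Per sum of the 4 basic helix-loop-helix factors the range was 1.67-fold, from 253 to 424. The value of 424 was that of replicate 2 of the stage 47 controls. The stage 45 treated libraries, at 301, 291 and 253, lay below the stage 45 controls, at 354, 394 and 345. At stage 47 the groups overlapped, at 295, 351 and 286 in treated heads and 348, 424 and 333 in controls. These ratios were chosen after the values were seen and are given with no test between points that share library and depth.

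**Figure D4:**
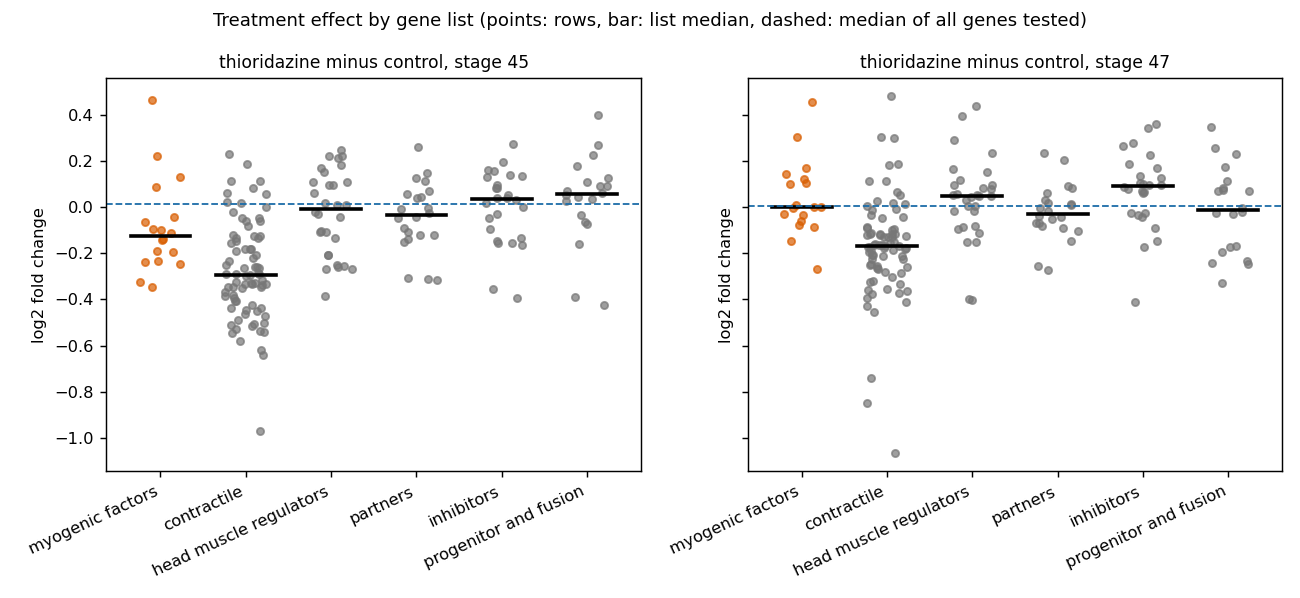
Log2 fold changes of the rows of each gene list with treatment at each stage (vertical axis); each point is 1 gene row and the line marks the list's median. At stage 45 the contractile rows centre on -0.29 with treatment, whereas the myogenic factors centre on -0.125 and the upstream head muscle regulators on -0.007. Left, stage 45; right, stage 47; the dashed line marks the median of all genes tested.

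Markers of other cells were set beside the contractile genes. With treatment at stage 45, 20 of 21 neuron rows lay below control (median -0.15) and 11 of 14 smooth muscle rows did (median -0.29), while 16 of 24 heart rows lay above (median 0.14). EdgeR and DESeq2 called 0 rows of these 3 lists at either stage. At stage 45, 3, 4 and 1 rows of them (14.3, 28.6 and 4.17%) had an unadjusted p under 0.05, beside 5.33% of all genes. The fit with the replicate block within each stage called 2 smooth muscle rows and 1 neuron row at stage 45, all lower, among 268 genes in all. At stage 47, 19 of 21 neuron rows (median -0.09), 11 of 14 smooth muscle rows (median -0.22) and 20 of 24 heart rows (median -0.14) lay below control. Of these lists 2, 1 and 1 rows (9.52, 7.14 and 4.17%) had an unadjusted p under 0.05, beside 3.52% of all genes. Averaged over both stages, 20 of 21 neuron rows (median -0.15), 12 of 14 smooth muscle rows (median -0.21) and 15 of 24 heart rows (median -0.03) lay below control. Of all rows of each list, 7 neuron rows (33.3%), 5 smooth muscle rows (35.7%) and 2 heart rows (8.33%) had an unadjusted p under 0.05, beside 6.9% of all genes. For both stages together edgeR called 0 rows of the 3 lists (39 genes in all) and DESeq2 called 1 smooth muscle row (148 genes in all). The block within each stage called 2 smooth muscle and 3 neuron rows (599 genes in all). All of these smooth muscle and neuron rows were lower. Summed neuron RNA ran from 1966 to 2521 CPM over the 12 libraries, smooth muscle RNA from 159.8 to 327 and heart RNA from 1025 to 1753. Their part in the contractile values was not tested.

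From stage 45 to stage 47 some contractile rows were called, some higher and some lower. In controls 6 of 79 rows were called, beside 6.24% of all genes. Of these rows 2 were higher and 4 lower, beside 3.03 and 3.21% of all genes. Treated heads gave 9 calls among the 79 rows, beside 4.86% of all genes. Of these 7 were higher and 2 lower, beside 2.09 and 2.77%. In treated heads tnnc1.L, the slow and cardiac troponin C, rose from 97.8, 110.2 and 95.2 CPM to 186, 194 and 166 CPM, by 0.85 on the log2 scale (SE 0.14, edgeR adjusted p = 0.00464). Tcap.S, telethonin of the Z-disc, rose from 74.3, 81.4 and 70.0 CPM to 113, 129 and 114 CPM (0.66, adjusted p = 0.00818 in edgeR). Myh8.L, a perinatal myosin heavy chain in mammals, fell from 11.5, 15.9 and 8.73 CPM to 4.46, 3.27 and 3.22 CPM (-1.71, adjusted p = 0.00656 in edgeR). The stages did not overlap for any of these 3, and each call remained when any 1 of the 12 libraries was left out.

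Myl2.S, the regulatory light chain, rose by 0.80 in treated heads from a mean of 301 to 525 CPM (edgeR adjusted p = 0.0192), and myl3.L, an essential light chain, by 0.62 from 535 to 824 CPM (adjusted p = 0.0311). Both calls were lost without treated replicate 1 or 3 of stage 45 or treated replicate 2 or 3 of stage 47, with adjusted p up to 0.0928 and 0.124. Tcap.L rose by 0.77 (adjusted p = 0.0223), and its call was lost without any 1 of the 6 treated libraries, with adjusted p up to 0.0915.

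In controls, tnnc1.L rose from a mean of 134 to 207 CPM (0.63, edgeR adjusted p = 0.0171, up to 0.0869 without replicate 1 or 3 of stage 45 or replicate 1 of stage 47). Actc1.S, the cardiac alpha-actin that Xenopus also uses in skeletal muscle, fell from 1416 to 883 CPM (-0.68, edgeR adjusted p = 0.0228, up to 0.105 without replicate 2 of stage 45 or replicate 1 or 2 of stage 47). Atp2a1.L, the fast calcium pump, fell from 516 to 335 CPM (-0.62, edgeR adjusted p = 0.03, up to 0.13 without replicate 2 of stage 45 or any 1 replicate of stage 47). Trdn.L (triadin, -0.49) and tmod4.L (-0.48) also fell and actn2.L (0.57) rose, with edgeR adjusted p of 0.0186, 0.0458 and 0.0356. These 3 calls were lost without 4, 10 and 5 of the 12 libraries, each including replicate 2 of the stage 47 controls, with adjusted p up to 0.0713, 0.184 and 0.148. In the fit on the control groups alone 0 contractile rows were called.

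Heart uses several of these genes, among them tnnc1, myl2, myl3, tcap, actc1 and actn2. Of the 24 heart rows 4 rose in controls from stage 45 to 47, beside 3.03% of all genes higher, and 1 rose in treated heads, beside 2.09%. Nppb.L, a natriuretic peptide of heart muscle, rose by 1.19 in controls (edgeR adjusted p = 0.0199), but not without replicate 1 or 3 of stage 45 or replicate 1 or 2 of stage 47, where the adjusted p was up to 0.09. Pln.S, the calcium pump inhibitor phospholamban, rose by 0.68 in treated heads (edgeR adjusted p = 0.00856, under 0.05 without any 1 library). The heart sum was 1314 ± 192 (SD, n = 3), 1256 ± 299, 1601 ± 209.5 and 1353 ± 202 CPM in the 4 groups, and how much of a contractile change came from heart was not tested.

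Rows of the other cell lists were called with stage as well. Of 14 smooth muscle rows 4 fell in controls and 2 in treated heads, beside 3.21 and 2.77% of all genes lower. Acta2.S, smooth muscle alpha-actin, fell in controls from 42.5, 59.3 and 41.6 CPM to 18.3, 12.6 and 29.6 CPM (-1.24, edgeR adjusted p = 0.0167, 0.076 without replicate 1 of stage 47). Acta2.L fell by 1.32 in controls (adjusted p = 0.0213 in edgeR), and its call was lost without replicate 1 or 2 of stage 45 or replicate 1 of stage 47, with adjusted p up to 0.076. In the fit on the control groups alone 0 smooth muscle rows were called. Of 21 neuron rows 1 rose and 2 fell in controls and 1 rose in treated heads, and of 17 liver rows 1 rose in controls, beside 3.03% of all genes higher in controls and 2.09% in treated heads. The part of these cells in the stage changes of contractile genes was not tested.

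Upstream of the members, 16 regulators of head muscle (30 rows, all tested) gave no edgeR or DESeq2 call for treatment at either stage. For stage they gave 3 calls in controls and 2 in treated heads, all lower, with six2.L among both. For treatment, edgeR and DESeq2 called 0 of 30 rows at either stage. At each stage 1 row (3.33%) had an unadjusted p under 0.05, beside 5.33% of all genes at stage 45 and 3.52% at stage 47. In controls 3 rows fell from stage 45 to 47 and 0 rose, beside 3.21% of all genes lower, and 27 of 30 rows lay below their stage 45 level. Six2.L, a homeobox partner of the Eya proteins, fell from 16.2, 17.8 and 21.9 CPM to 10.5, 11.0 and 12.97 CPM (-0.70, edgeR adjusted p = 0.0168, up to 0.0817 without replicate 3 of stage 45 or replicate 1 or 2 of stage 47). Every stage 47 control lay below every stage 45 control.

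In treated heads 2 of 30 upstream rows fell from stage 45 to 47 and 0 rose, beside 2.77% of all genes lower. One was six2.L, which fell by 0.57 on the log2 scale (edgeR adjusted p = 0.0422). Its call was lost without 8 of the 12 libraries in turn, with adjusted p up to 0.162. Whether the stage change differed between control and treated heads is the same question as the difference of treatment effects. For it 0 of 30 rows were called and 2 (6.67%) had an unadjusted p under 0.05, beside 2.13% of all genes.

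Among partners, inhibitors and genes of progenitors and fusion, few rows were called with stage. With treatment, edgeR and DESeq2 called none at either stage. In controls 1 of 22 partner rows, 2 of 26 inhibitor rows and 1 of 20 progenitor and fusion rows fell, beside 3.21% of all genes lower, and in treated heads 2 inhibitor rows fell, beside 2.77%. The partner was carm1.S, an arginine methyltransferase that coactivates Mef2c, which fell by 0.44 on the log2 scale in controls (edgeR adjusted p = 0.0336, up to 0.119 without replicate 2 or 3 of stage 45 or any 1 replicate of stage 47). Among inhibitors, hey1.L, a Notch target that represses myogenesis, fell in controls from 32.0, 35.2 and 30.8 CPM to 23.4, 22.4 and 24.2 CPM (-0.48, edgeR adjusted p = 0.0109, 0.055 without replicate 2 of stage 47). Twist1, which binds E proteins and blocks Myod1 and is also a neural crest gene, fell in controls as twist1.L (-0.39, edgeR adjusted p = 0.0296) and in treated heads as twist1.S (-0.51, adjusted p = 0.0113) and twist1.L (-0.46, adjusted p = 0.0172). The twist1 calls were lost without 6, 3 and 4 of the 12 libraries in turn, with adjusted p up to 0.13, 0.0528 and 0.0849. Among progenitor and fusion genes, mymk.L, the membrane protein myomaker that fuses myoblasts, fell in controls from 6.46, 7.74 and 5.55 CPM to 4.66, 3.84 and 2.92 CPM (-0.80, edgeR adjusted p = 0.0347, up to 0.109 without replicate 1 or 2 of stage 45 or any 1 replicate of stage 47). For treatment, edgeR and DESeq2 called 0 rows of these 3 lists at either stage. At stage 45, 1, 1 and 1 rows (4.55, 3.85 and 5%) had an unadjusted p under 0.05, beside 5.33% of all genes. At stage 47 there were 0, 0 and 1 rows (0, 0 and 5%), beside 3.52%. Averaged over both stages edgeR called 0 rows, and 1, 3 and 1 rows (4.55, 11.5 and 5%) had an unadjusted p under 0.05, beside 6.9%. The smallest was that of stac3.L, a progenitor and fusion row (-0.32, edgeR unadjusted p = 0.00365, adjusted p = 0.341). At stage 45 stac3.L gave -0.39 (edgeR adjusted p = 0.656, 0.0655 with the replicate block within each stage). Counts of these lists with that block are not given here.

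The genes whose pattern over the 12 libraries was most like that of a member were found by the root mean square difference of log2 CPM, each gene centred on its own mean, among 19990 named genes with a mean of at least 1 CPM. For myog.S these were espl1.S (0.116), ect2.L (0.117) and birc5l.S (0.117), genes of chromosome separation and cell division. For myf6.S they were dmtn.S (0.096), bsk146.S (0.098) and nt5c2.L (0.10), and for myod1.S rax2.L (0.118), rbm38.L (0.136) and pcgf2.S (0.161). For myf5.L the nearest was thrsp.S (0.176), and for mef2d.L it was ubtf.L (0.053). For pax7.L, mef2a.S, mef2c.L and tbx1.L the nearest were pou3f2.L (0.082), septin6.L (0.073), nnt.L (0.068) and ints2.S (0.064). Members differ in depth and in spread, so the distances rank genes for 1 member at a time.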

How the data were processed

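RNA from whole heads was sequenced as single-end 100-base reads from TruSeq v2 libraries, a kit that keeps no strand, per the labels' protocols. The authors deposited unnormalized whole-number counts for 37018 gene rows, with 1 file for each of the 12 libraries. Trimmomatic, HISAT2, HTSeq and DESeq2 are named in the submitters' processing notes, without versions. Build, annotation and treatment of multiply mapped reads were not given in the sources used here. Because strand was not kept, reads of a gene and of an overlapping antisense gene cannot be told apart. Of the row identifiers, 33597 matched a name in the Xenopus_laevis_v10.1 table, which served for names and for neighbouring genes only.

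The main test was the robust quasi-likelihood test of edgeR 4.0.16, run in R 4.3.3. Library sizes were scaled by TMM, and filterByExpr (minimum count 10) left 27050 genes. All 12 libraries entered 1 model with a mean per group, from which 6 contrasts were taken. Benjamini-Hochberg adjustment ran over all genes of a contrast, and an adjusted p under 0.05 was a call. The 95% intervals of log2 fold changes come from standard errors of the same fit. They are unadjusted. An interval rests on 1 spread per gene, estimated from all 12 libraries and drawn toward that of other genes. It is not the spread of the groups compared alone. Each group had 3 libraries, at totals of 11998636 to 16933777 counts. For log2 CPM the prior count was 2. The steps were tested on simulated data with known changes. Alternatives were DESeq2 1.42.0, RLE scaling, no filter, only the groups compared, homeologs summed, 2 forms of replicate block and leaving out each library. The count of contractile rows under these alternatives was added after the data were seen.

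Treated and control libraries with the same replicate number deviated together, with correlations of 0.326 to 0.586 at stage 45 and 0.18 to 0.471 at stage 47, all over 0.1. The labels do not say what a number marks. The main test had no block for it, and correlations between libraries of unlike number were not computed. Between stages the correlations ran from 0.014 to 0.562. The members, the gene lists and the tests were chosen with earlier results of these data known. Named genes were every member row, up to 6 called contractile rows per contrast or the 3 with the smallest p, up to 3 called rows of each other list or the 1 with the smallest p, and the 3 nearest patterns per member. Some of these are given as counts only. The results of 2 genes of the upstream list are not reported here, though counts of that list include them.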

Additional observations from a re-analysis of the deposited data

How the results depend on the processing

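No myogenic factor row was called in any contrast under any alternative run. Of 108 member values (18 rows in 6 contrasts), 45 changed sign under at least 1 alternative, 4 of them with all libraries kept, and none of these was over 0.25 in size on the log2 scale. Of the 22 with an unadjusted p under 0.15, 0 changed sign. Among myod1 and myf5 rows, the stage 47 treatment value of myod1.L (-0.092) and myf5.S (-0.08) changed sign without stage 47 control replicate 2. That of myf5.S (-0.124) also did without replicate 3 of the stage 47 treated heads. Each such fit left fewer samples. On leaving out each library this value ran from -0.092 to 0.32 for myod1.L and from -0.124 to 0.398 for myf5.S. Replicate 2 of the stage 47 controls was also the lowest of the 12 libraries for both myog copies. The myog values without it are not given here.

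Counts of all genes called moved more. For treatment at stage 45 the count was 0, but 77 in DESeq2, 16 with a replicate block, 268 with a replicate block within each stage, and 0 to 9 on leaving out a library. For treatment at stage 47 it was 20, but 69, 51 and 171 in those fits, and 0 to 24 on leaving out a library. For both stages together it was 39, but 148, 121 and 599, and 16 to 43. For the difference of treatment effects it was 0, but 4 in DESeq2 and 27 with the block within stages. For stage in controls it was 1689, but 660 on the groups compared alone, 3068 with the replicate block, and 429 to 1768 on leaving out a library. For stage in treated heads it was 1314, but 2704 with the replicate block, and 392 to 1738.

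Contractile rows called for treatment were 0 at stage 45, but 2 in DESeq2 and 9 with the replicate block within each stage, and 0 for both stages together, but 2 and 17. For stage in controls they were 6, but 11 in DESeq2, 0 on the groups compared alone, 3 with homeologs summed, 12 with the replicate block, and 1 to 7 on leaving out a library. For stage in treated heads they were 9, but 4 with homeologs summed, and 3 to 11 on leaving out a library. The summed homeologs make fewer rows. The cause of the other shifts was not tested. A block within stages leaves the stage contrasts without an estimate, and the fit on the groups compared is the full fit for contrasts of all 4 groups. With 3 libraries per group and 24 to 63 counts per library, myf5.L was the least precise member, and its differences with treatment could not be bounded within 2-fold at stage 47.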
